A study of Mus musculus with 1824 samples.

Results

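Compared here were 154 globin-rich cells from E8.5 chimaeric mouse embryos, 74 on E8.5 plate 1 and 80 on E8.5 plate 2, of 1824 cells in the whole series. They were selected on the starts of their column names, on at least 100000 total reads, and on at least 10000 counts per 1000000 reads (CPM) summed over Hba-x, Hbb-bh1 and Hbb-y, the embryonic globin genes. Because these values chose the cells, globin level and depth are given below as a description only.

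RNA was read by Smart-seq2, which amplifies whole transcripts and carries no molecular identifiers, in cells sorted into plates of 96 wells. The chimaeras were made by injecting Tet triple-knockout (Tet-TKO) embryonic stem cells, which lack Tet1, Tet2 and Tet3 and carry H2B-tdTomato driven by the CAG promoter, into wild-type C57BL/6J blastocysts carried by CD1 recipients. The labels give CD1 as the strain and E8.5 embryo as the tissue of every cell on both plates. The methods of the study describe sorting tdTomato-labelled Tet-TKO cells and unlabelled host cells by the surface proteins CD41 and KDR. Neither the labels nor the methods say which gate, which genotype or which embryo filled plate 1 or plate 2, and embryos are not named, so plate is the only label. The knockout cells come from 1 line, and the host keeps its own blood lineage. Each plate therefore counted as 1 sample, cells were not treated as replicates, and no test between the plates was possible. Plate, gate, genotype, embryo and library preparation cannot be told apart here.

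Primitive erythropoiesis is the first wave of red cell formation in the embryo. Blood progenitors in the yolk sac switch on GATA1 and KLF1, accumulate embryonic haemoglobin, make haem, take up iron and assemble the spectrin-based skeleton beneath the red cell membrane. As they mature they lose progenitor and megakaryocyte-associated genes, and the beta-like globin Hbb-bh1 is progressively joined and then exceeded by Hbb-y.

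On plate 1, 74 of 92 wells with enough reads passed the globin limit, which is 80.4% (exact Clopper-Pearson 95% interval, 70.9% to 88%). On plate 2, 80 of 91 passed, which is 87.9% (79.4% to 93.8%). Intervals over cells, here and below, treat the cells of 1 plate as independent draws and do not cover differences between embryos or plates. Intervals of CPM cover counting error of reads only and may be too narrow, since reads without molecular identifiers are not independent molecules. The reads of the members summed to 81221642 on plate 1, from 223966 to 2132677 a cell, and to 48721430 on plate 2, from 129954 to 1365284. Mitochondrial genes took a median of 1.11% of reads on plate 1 and 1.74% on plate 2, and genes encoding ribosomal proteins 7.46% and 7.53%. At an equal 100000 reads a cell, the median number of genes seen was 5578 on plate 1 and 6538 on plate 2, against 7422 and 7834 without thinning. No 2 members held identical counts (0 pairs).

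The globin limit separated the wells differently on the 2 plates. On plate 1 the highest well below it had 2300 CPM and the lowest member 50046 CPM, so that plate had an empty stretch around the limit. On plate 2 the highest well below it had 7002 CPM and the lowest member 11666 CPM. The members of plate 1 had a median of 213907 CPM and a highest value of 360484 CPM. Those of plate 2 had a median of 46175 CPM and a highest value of 265470 CPM. Of the plate 2 members, 44 lay below 50000 CPM, a range with 0 members on plate 1, and 17 reached 100000 CPM against 64 on plate 1. The globin loads overlapped only from 50046 to 265470 CPM, and comparisons restricted to cells of at least 100000 CPM are therefore given beside the main ones.

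**Figure D1:**
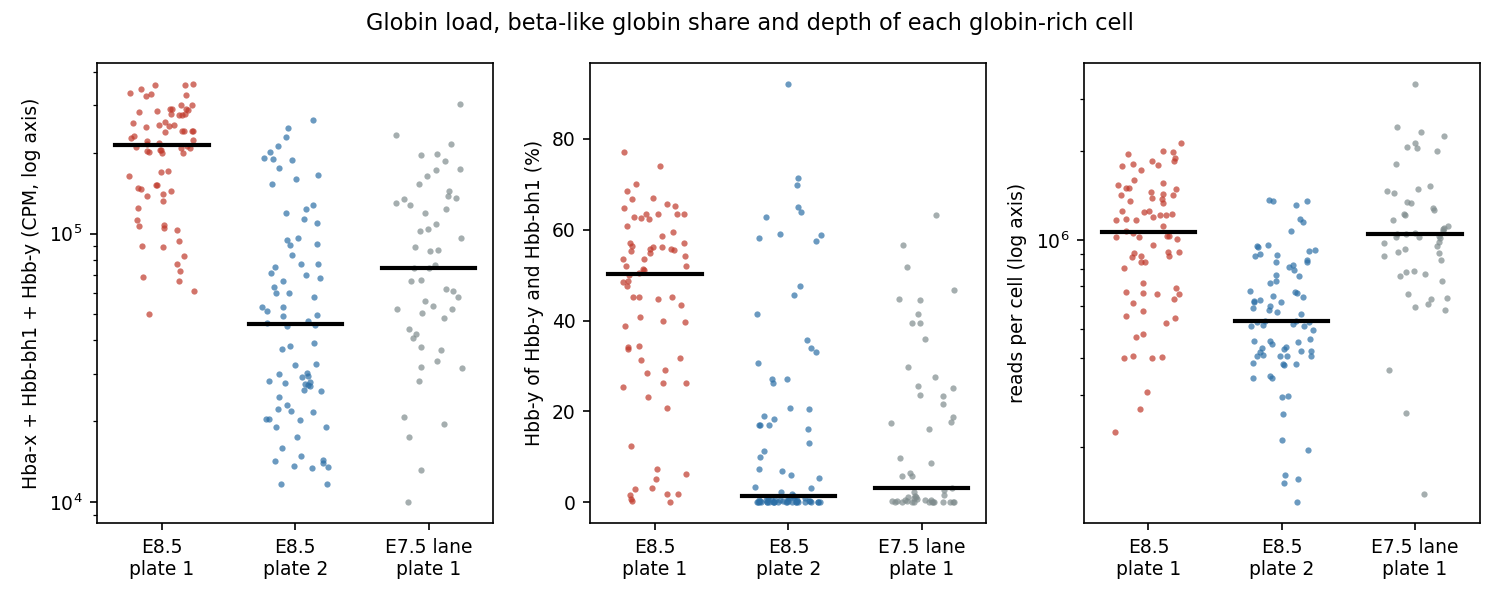
Summed CPM of Hba-x, Hbb-bh1 and Hbb-y (log axis), the share of Hbb-y among Hbb-y and Hbb-bh1 reads, and reads per cell (log axis), with 1 point per globin-rich cell and a bar at the median. Plate 1 had the higher median globin load (213907 against 46175 CPM) and Hbb-y share (50.2% against 1.45%), and E7.5 lane plate 1, from an earlier stage, is shown beside them.

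The make-up of the globin transcripts differed as well as their amount. Over the summed reads of 10 globin genes, plate 1 held near-equal parts of Hbb-y (33.4%), Hbb-bh1 (33%) and Hba-x (29.9%), the embryonic alpha-like gene. On plate 2 Hbb-bh1 alone took 51%, with 23.3% for Hbb-y and 22.2% for Hba-x. The share of Hbb-y among Hbb-y and Hbb-bh1 ran from 0.0713% through a median of 50.2% to 77% over the cells of plate 1, and from 0 through a median of 1.45% to 92.1% over those of plate 2. Both plates thus held cells with almost pure Hbb-bh1 and cells rich in Hbb-y, and the middle of the distribution differed. E7.5 lane plate 1, an earlier-stage plate with 53 cells past the same limits, had a median share of 3.03%.

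In cells of at least 100000 globin CPM, a limit on the sum of these same genes that by itself draws their ratios together, the log2 ratio of plate 1 over plate 2 was 0.19 for Hbb-y, 0.08 for Hbb-bh1 and 0.60 for Hba-x, against 2.07, 0.92 and 1.98 over all members. Ratios throughout are log2 of summed CPM plus 1 CPM on plate 1 over the same on plate 2. Among the other globin genes, 6 had at least 10 CPM, with a median log2 ratio of 1.22 over all members and 0.11 at high load. At high load 3 of the 6 were above 0, and the adult beta gene Hbb-bs was at -0.30. The adult alpha gene Hba-a2 had 2004 CPM on plate 1 and 324 CPM on plate 2 (log2 ratio 2.63, and 1.21 at high load). The adult beta gene Hbb-bt had 136 and 17.7 CPM (2.88, and 1.61 at high load, or 2.14 there without 1 plate 2 cell described below). Hba-a1 and Hba-a2, like Hbb-bs and Hbb-bt, are near-identical copies, so their separate values are uncertain.

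Across all genes, plate 2 had more genes at the higher level. Of 8083 genes with at least 10 CPM on either plate, 248 (3.07%) were at least 2-fold higher on plate 1 and 1008 (12.5%) at least 2-fold higher on plate 2, with a median log2 ratio of -0.31. Globin took 20.4% of all reads on plate 1 and 6.99% on plate 2, which lowers the CPM of every other gene on plate 1. With library sizes taken without the 10 globin genes the median was -0.08, and of 8331 genes 384 (4.61%) were higher on plate 1 and 739 (8.87%) on plate 2. The share of all 2-fold differences that lay on the plate 1 side was 19.7% with globin counted and 34.2% without. All 248 genes called on plate 1 were called again without globin, and 713 of the 1008 called on plate 2. The first of these was fixed in advance. Leaving globin out raises levels on plate 1 more than on plate 2, so only plate 2 calls can be lost.

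Restriction to cells of high globin load left differences in both directions. Loads within it still differed, with 45 plate 1 cells and 5 plate 2 cells at 200000 CPM or more. With 64 plate 1 cells and 17 plate 2 cells of at least 100000 globin CPM, 531 of 7790 genes (6.82%) were at least 2-fold higher on plate 1 and 664 (8.52%) on plate 2, with a median log2 ratio of -0.06. Of the 248 genes called on plate 1 over all members, 167 were called again, and of the 1008 called on plate 2, 492. With 17 cells on 1 side, values of genes seen in few cells rest on little material.

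On each plate 1 cell stood apart from the rest across many of the genes described below. The plate 1 cell, with 630181 reads and 69015 globin CPM, had the highest value of its plate in 10 of the 15 genes named for plate 2. It had 606 CPM of Rps3a3, a level of plate 2 cells, against at most 15.98 CPM in the other 73 cells of plate 1. The plate 2 cell, with 463902 reads and 211415 globin CPM, had the lowest Rps3a3 of its plate, at 310 CPM against at least 568 CPM in the others, and was the only one with Mrap. Both cells were picked out after their values were seen, as the highest in Rps3a3 on plate 1 and the lowest on plate 2. Why they differ was not tested. Without both, 252 genes were at least 2-fold higher on plate 1 and 1041 on plate 2. Values that either cell moved by over 1.5 times are given without it beside the gene.

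**Figure D2:**
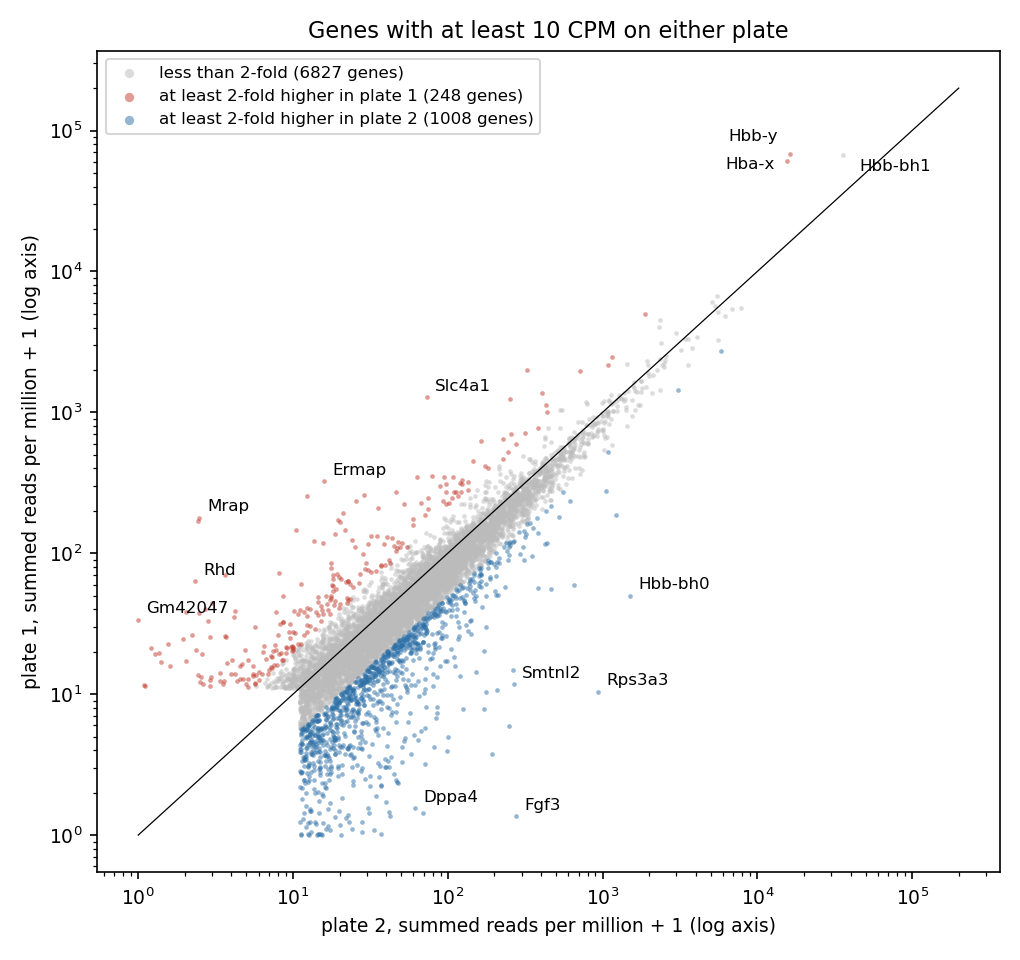
Summed CPM plus 1 of each gene on plate 2 (x) and plate 1 (y), both log axes, for the 8083 genes of at least 10 CPM on either plate, with the line of equal levels. The 248 red genes are at least 2-fold higher on plate 1, the 1008 blue genes at least 2-fold higher on plate 2, and named examples include Mrap (178 against 1.46 CPM) and Fgf3 (0.357 against 276 CPM).

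The genes named next had the largest ratios in each direction among genes with at least 20 CPM on the higher plate, a read in at least 50% of its cells, and the same sign in wells of columns 1 to 6 and of columns 7 to 12. There were 15 in each direction. Since these ratios chose the genes, the ratios are a description. On plate 1 the 15 comprised 12 protein-coding genes, 2 long non-coding RNAs and 1 processed pseudogene. On plate 2 there were 8 protein-coding genes, 5 processed pseudogenes, 1 unprocessed pseudogene and 1 processed transcript.

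Sequence around a RefSeq start of leading protein-coding genes is shown so that start regions of genes high on the 2 plates can be read side by side. RefSeq start regions on build GRCm38.p6 were matched for 6 of the 12 protein-coding genes of plate 1 and 6 of the 8 of plate 2. The first 3 and the first 2 with an entry are printed, each 300 bases, 5′ to 3′ on the strand of the gene. Capitals mark AGATAA or its reverse TTATCT, letters bound by GATA factors, and CACCC or its reverse GGGTG, letters bound by KLF factors, and the 2 motifs do not overlap each other.
Rhd: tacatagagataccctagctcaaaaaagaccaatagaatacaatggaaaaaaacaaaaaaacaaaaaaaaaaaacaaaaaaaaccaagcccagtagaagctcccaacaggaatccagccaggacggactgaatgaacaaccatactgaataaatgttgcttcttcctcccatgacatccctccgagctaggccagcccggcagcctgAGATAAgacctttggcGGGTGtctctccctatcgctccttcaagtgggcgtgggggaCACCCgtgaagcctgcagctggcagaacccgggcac
Nxpe2: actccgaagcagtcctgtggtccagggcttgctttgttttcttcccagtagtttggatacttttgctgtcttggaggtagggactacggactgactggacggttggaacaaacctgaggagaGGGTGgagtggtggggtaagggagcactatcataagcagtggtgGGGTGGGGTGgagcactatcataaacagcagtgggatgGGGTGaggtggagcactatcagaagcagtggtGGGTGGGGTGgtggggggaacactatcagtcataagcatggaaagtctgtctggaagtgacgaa
Ermap: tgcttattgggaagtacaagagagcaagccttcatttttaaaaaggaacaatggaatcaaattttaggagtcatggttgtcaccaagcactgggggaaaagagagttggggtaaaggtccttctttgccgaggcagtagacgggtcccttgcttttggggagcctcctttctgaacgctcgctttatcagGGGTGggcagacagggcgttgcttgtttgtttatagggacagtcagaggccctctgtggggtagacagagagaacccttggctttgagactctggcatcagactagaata
Fgf3: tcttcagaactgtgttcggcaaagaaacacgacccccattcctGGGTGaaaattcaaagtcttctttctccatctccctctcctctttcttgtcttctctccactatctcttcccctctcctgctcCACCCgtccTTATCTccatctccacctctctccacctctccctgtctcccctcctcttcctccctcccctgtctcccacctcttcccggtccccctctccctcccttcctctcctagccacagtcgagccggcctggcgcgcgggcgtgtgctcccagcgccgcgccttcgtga
Parm1: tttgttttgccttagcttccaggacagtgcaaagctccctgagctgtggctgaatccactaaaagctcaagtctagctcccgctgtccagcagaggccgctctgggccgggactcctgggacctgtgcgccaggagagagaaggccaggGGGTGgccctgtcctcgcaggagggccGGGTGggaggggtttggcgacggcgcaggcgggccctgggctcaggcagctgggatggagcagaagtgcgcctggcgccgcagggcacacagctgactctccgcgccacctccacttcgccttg

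The Rhd window (chr4:134864286-134864585, plus strand) held 1 AGATAA and 2 CACCC matches. The Nxpe2 window (chr9:48340849-48341148, minus strand) held 6 CACCC matches and the Ermap window (chr4:119189946-119190245, minus strand) held 1. The Fgf3 window (chr7:144838362-144838661, plus strand), from the plate 2 side, held 1 AGATAA and 2 CACCC matches, and the Parm1 window (chr5:91517450-91517749, plus strand) held 2 CACCC matches. Over all 32851 windows of the table, 11.2% held AGATAA and 57.5% held CACCC on either strand. The windows of Fgf3 and Parm1 held 14 and 16 CG dinucleotides, and those of Rhd, Nxpe2 and Ermap 8, 4 and 5. Over all windows the median was 7. The share of all windows with fewer CG ran from 31.4% for Nxpe2 to 67% for Parm1. A difference in CG between the genes of the plates was not tested. The windows follow RefSeq starts, and those of Nxpe2 and Fgf3 lie wholly inside the genes as positioned in GENCODE M21. There Nxpe2 starts at 48353454 on the minus strand and Fgf3 at 144838083 on the plus strand. A match in letters is a description and not a bound site.

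Slc4a1, Ermap, Rhd and Ank1 were the red cell membrane genes among the 15 of plate 1. Slc4a1 (chromosome 11, 102348824 to 102366203, GRCm38), which encodes the anion exchanger band 3, ran from 0.513 through a median of 1330 to 3191 CPM over the 74 cells of plate 1. On plate 2 it was seen in 10 of 80 cells, from 0 through a median of 0 to 1637 CPM. Every plate 1 cell had a read and most plate 2 cells had none, and the summed levels were 1287 and 72.1 CPM (log2 ratio 4.14). In cells of at least 100000 globin CPM the ratio was 2.07.

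Ermap (chromosome 4, 119175457 to 119190011), which encodes an erythroblast membrane protein carrying the Scianna blood group, ran from 0 through a median of 299 to 1114 CPM on plate 1 and from 0 through a median of 0 to 210 CPM on plate 2. It was seen in 70 of 74 and 19 of 80 cells, with summed levels of 325 and 14.9 CPM (4.36, and 2.92 at high load). Rhd (chromosome 4, 134864536 to 134896172), which encodes the Rh blood group protein, was seen in 53 and 3 cells, with 62.6 and 1.31 CPM (4.78, and 3.24 at high load, or 5.49 and 4.50 without the plate 2 cell that stood apart). Ank1, which encodes the ankyrin that ties band 3 to spectrin, had 146 and 9.50 CPM (3.80, and 2.18 at high load). Single cells of the plates overlapped in all 3 genes, and most plate 2 cells had no read of them.

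The largest ratio of the plate 1 side was that of Mrap (chromosome 16, 90738207 to 90749785), which encodes an accessory protein of the melanocortin receptor for ACTH. It was seen in 73 of 74 cells on plate 1, from 0 through a median of 173 to 523 CPM, and in 1 of 80 cells on plate 2, at 153 CPM. The summed levels were 178 (exact Poisson 95% interval 175 to 181) and 1.46 CPM (1.14 to 1.84), a log2 ratio of 6.19. All 71 plate 2 reads came from the cell that stood apart, and the ratio without it was 7.48. Its level on plate 1 was similar across globin loads, with 149, 172 and 188 CPM in cells of 50000 to 100000, 100000 to 200000 and at least 200000 globin CPM. On plate 2 no read of Mrap was found in the 19 cells of the first of these bins or the 12 of the second. On E7.5 lane plate 1 Mrap had 104 CPM.

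The other protein-coding genes of the plate 1 side had varied known roles. Pklr, the pyruvate kinase of red cells and liver, had 69.2 CPM on plate 1 and 2.65 CPM on plate 2 (log2 ratio 4.27). Slc14a1, a urea transporter that carries the Kidd blood group, had 36.9 and 1.46 CPM (3.95), and Nxpe2 had 255 and 11.3 CPM (4.38). The kinase gene Sgk3, the chloride channel gene Ano1, the claudin gene Cldn13 and the homeobox gene Hesx1 had ratios of 4.22, 3.89, 3.88 and 3.67. All 15 genes of this side kept a ratio of at least 2.07 in cells of at least 100000 globin CPM. The long non-coding RNA Gm42047 had 2670 reads on plate 1 and 0 on plate 2, at least 534-fold higher against a floor of 3 reads over the group.

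Fgf3 (chromosome 7, 144838083 to 144844436), which encodes a secreted fibroblast growth factor, had the largest ratio on the plate 2 side. On plate 2 it ran from 0 through a median of 161 to 1263 CPM, with a read in 60 of 80 cells. On plate 1 it was seen in 2 of 74 cells, at most at 19.6 CPM. The summed levels were 276 CPM (271 to 281) on plate 2 and 0.357 CPM (0.239 to 0.513) on plate 1, a log2 ratio of -7.67. Its level on plate 2 was lower in cells with more globin, at 361, 264, 66 and 12.4 CPM in bins from 10000, 50000, 100000 and 200000 globin CPM, the last 3 bins holding under 20 cells each (19, 12 and 5). At loads of at least 100000 CPM the ratio was still -5.03.

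Fgf10, another ligand of the family, had 33.5 CPM on plate 2 and 0.899 CPM on plate 1 (log2 ratio -4.18). Of 13 listed FGF ligands, receptors and response genes, only these 2 reached 10 CPM. The receptors Fgfr1, Fgfr2 and Fgfr3 had at most 4.84 CPM on either plate.

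Dppa4 (chromosome 16, 48283733 to 48294237), a nuclear protein gene associated with pluripotent cells, was seen in 45 of 80 cells on plate 2, from 0 through a median of 10.3 to 350 CPM. On plate 1 it was seen in 1 of 74 cells, the one that stood apart, at 71.4 CPM. The summed levels were 60.3 and 0.554 CPM (log2 ratio -5.30, or -5.94 without that cell), and the ratio at high load was -5.63. Of 10 listed genes of primed pluripotency it was the only one to reach 10 CPM. Pou5f1 and Utf1 were at or near 0 on both plates.

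Hbb-bh0 (chromosome 7, 103850020 to 103850148), annotated as an unprocessed pseudogene of the beta-globin locus, went against the other globin genes. It ran from 0 through a median of 701 to 9934 CPM on plate 2 and from 0 through a median of 45.4 to 568 CPM on plate 1, although plate 1 held more globin. The summed levels were 1507 and 49.01 CPM (log2 ratio -4.91, and -6.09 at high load). On plate 2 its level was higher in cells with more globin, at 573, 2073, 2929 and 4602 CPM in the 4 bins of load. On E7.5 lane plate 1 it had 1350 CPM. Reads of this pseudogene may be shared with the neighbouring globin genes, and the part of read sharing was not tested.

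The remaining protein-coding genes of the plate 2 side had varied known roles. Smtnl2, a smoothelin-like gene, was seen in 78 of 80 cells on plate 2 and 16 of 74 on plate 1, with 266 and 10.8 CPM (log2 ratio -4.49). The tetraspanin gene Tspan12 had 171 and 6.91 CPM (-4.44), and Mybpc3, known for cardiac myosin-binding protein C, had 97.5 and 2.97 CPM (-4.63). Parm1, the LIM-domain gene Zfp185 and the small GTPase gene Rab37 had ratios of -5.60, -4.47 and -4.84. The plate 1 cell that stood apart held 81.1% of the plate 1 reads of Rab37, and the ratio without it was -5.26. The processed transcript C330024D21Rik had a ratio of -4.73. Rab37 was the 1 gene of the 15 that came under 2-fold at high load, with a ratio of -0.35.

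**Figure D3:**
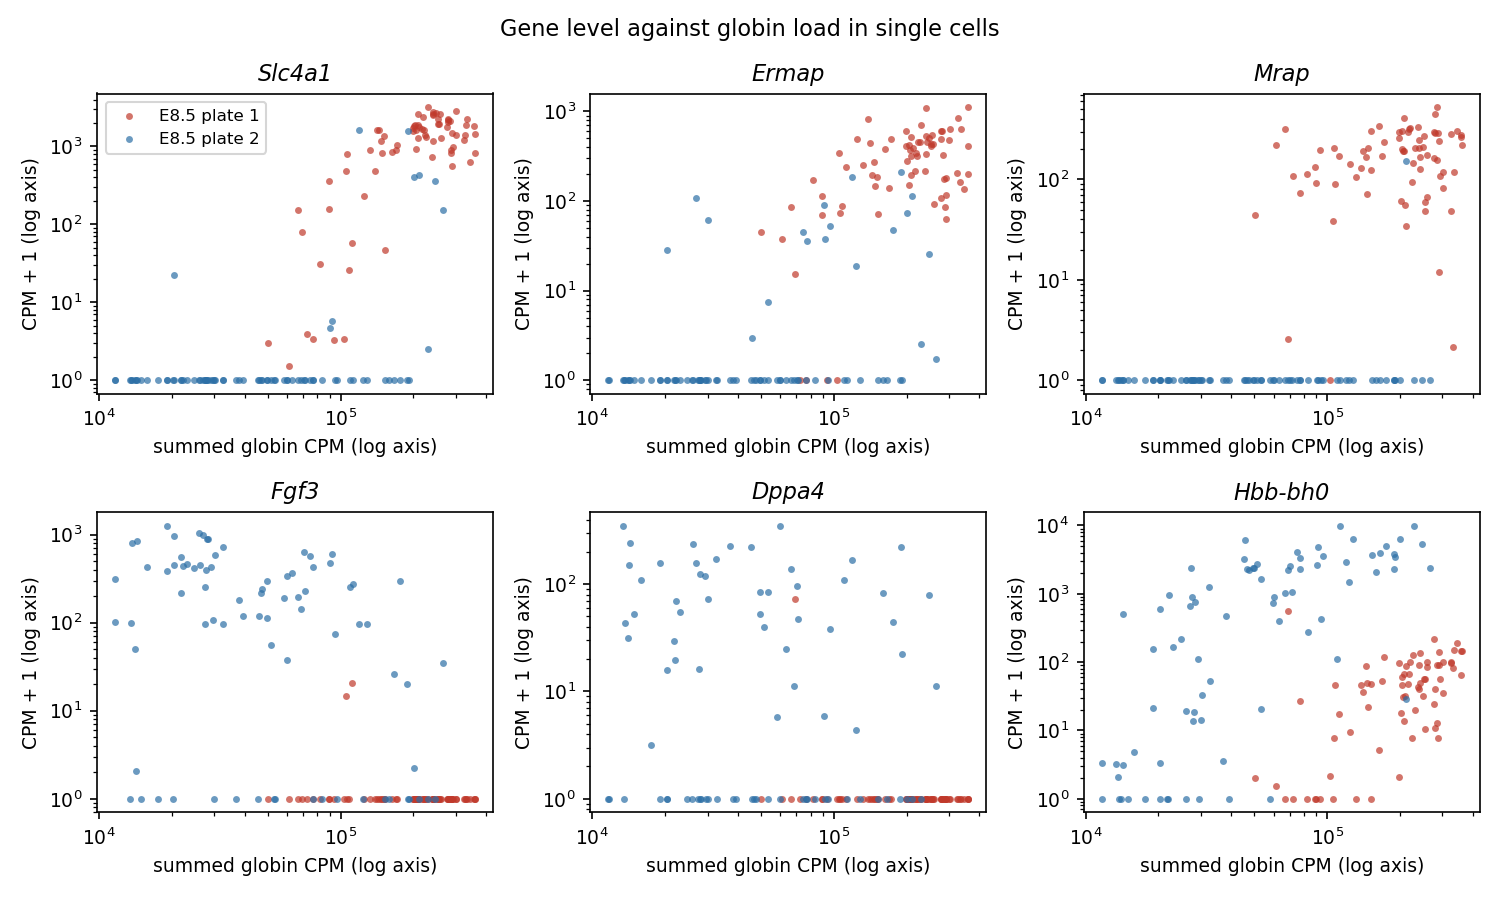
CPM plus 1 of 6 genes in single cells against the summed CPM of Hba-x, Hbb-bh1 and Hbb-y, both log axes, with plate 1 in red and plate 2 in blue. Slc4a1 and Ermap are higher in cells with more globin on plate 1, while Mrap is seen in 73 of 74 plate 1 cells and 1 of 80 plate 2 cells, and Fgf3, Dppa4 and Hbb-bh0 are higher on plate 2 at shared loads.

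The erythroid transcription factors were mixed. Gata1 had 364 CPM on plate 1 and 368 CPM on plate 2 (log2 ratio -0.02), and its partner Tal1 245 and 256 CPM (-0.06). Klf1, which drives globin and membrane genes, had 630 and 164 CPM (1.94, and 1.27 at high load). Its relative Klf3 had 71.8 and 7.12 CPM (3.16), and Ikzf1, the gene of Ikaros, 115 and 37.7 CPM (1.58). Myb, a factor of proliferating progenitors, had 6.37 and 84.3 CPM (-3.53), and the corepressor Cbfa2t3 35.9 and 80.5 CPM (-1.14, or -0.92 without globin in the library size). Of the 16 factors measured at 10 CPM, 3 were at least 2-fold higher on plate 1 and 2 on plate 2, against 3.07% and 12.5% of all genes, with a median ratio of 0.04 against -0.31.

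Genes of haem synthesis, iron uptake and the membrane were higher on plate 1 in most cases and never 2-fold higher on plate 2. For haem synthesis, 7 of 12 genes were at least 2-fold higher on plate 1 and 0 on plate 2, with a median of 1.06, while over all genes 3.07% were higher on plate 1 and 12.5% on plate 2, with a median of -0.31. Alas2, the erythroid enzyme of the first step, had 1365 and 406 CPM (1.75), and Uros 447 and 145 CPM (1.61). For iron, 3 of 9 were higher on plate 1 and 0 on plate 2: the ferrireductase Steap3 (3.06), the mitochondrial importer Slc25a37 (2.30) and the transferrin receptor Tfrc (1.17). For membrane and skeleton, 14 of 19 were higher on plate 1 and 0 on plate 2, with a median of 1.57. At loads of at least 100000 globin CPM the counts were 4, 1 and 9, and the medians 0.60, 0.29 and 0.99, against 6.82% of all genes and a median of -0.06. Without the plate 2 cell that stood apart, the high-load count for haem synthesis was 2. With globin left out of the library size the counts over all members were 9, 3 and 14.

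Further membrane genes were among the 14. Rhag, the Rh-associated glycoprotein, had 233 and 24.6 CPM (log2 ratio 3.19), Cd24a 256 and 27.9 CPM (3.16), Tspan33 146 and 20.5 CPM (2.77) and Dmtn, which encodes dematin, 110 and 24.2 CPM (2.13). Among other erythroid genes, 6 of 15 were higher on plate 1 (3.07% of all genes) and 0 on plate 2 (12.5%), with a median of 0.91. The 6 were led by Pklr and by Hemgn, a nuclear factor of erythroid cells (194 and 20.03 CPM, 3.21). Defining erythroid markers were read on both plates, with Gata1 in 74 of 74 and 80 of 80 cells and Klf1 in 74 and 70.

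Genes of blood progenitors and megakaryocytes were higher on plate 2. For progenitors, 0 of 10 were at least 2-fold higher on plate 1 and 9 on plate 2, with a median of -2.10, against 3.07% and 12.5% of all genes and a median of -0.31. Fli1, an ETS factor of endothelium and megakaryocytes, had 6.91 and 124 CPM (-3.98), and Hhex 16.2 and 98.3 CPM (-2.53). Runx1, a factor needed for definitive blood, had 32.3 and 139 CPM (-2.07), and Gata2 3.98 and 17.5 CPM (-1.89). For megakaryocytes, 0 of 8 were higher on plate 1 and 7 on plate 2, with a median of -2.84, or 8 and -3.89 without the 2 cells that stood apart. Rab27b had 13.9 and 262 CPM (-4.14, or -5.28 without the plate 1 cell that stood apart), and Itga2b, which encodes the sorted surface protein CD41, 56.9 and 233 CPM (-2.01).

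On plate 2 the levels of genes from both lists were lower in cells with more globin. Fli1 had 172, 88.8, 36.1 and 5.54 CPM and Rab27b 366, 181, 82.8 and 0 CPM in the 4 bins from the lowest load to the highest. At loads of at least 100000 CPM, 6 of the 10 progenitor genes and 5 of the 8 megakaryocyte genes were still at least 2-fold higher on plate 2 (8.52% of all genes), and 1 of each list was higher on plate 1 (6.82%). The progenitor gene there was Kit, whose ratio was -1.15 over all members and 3.67 at high load. Pf4, a defining platelet gene, had 0 reads on plate 1 and 1.15 CPM on plate 2.

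**Figure D4:**
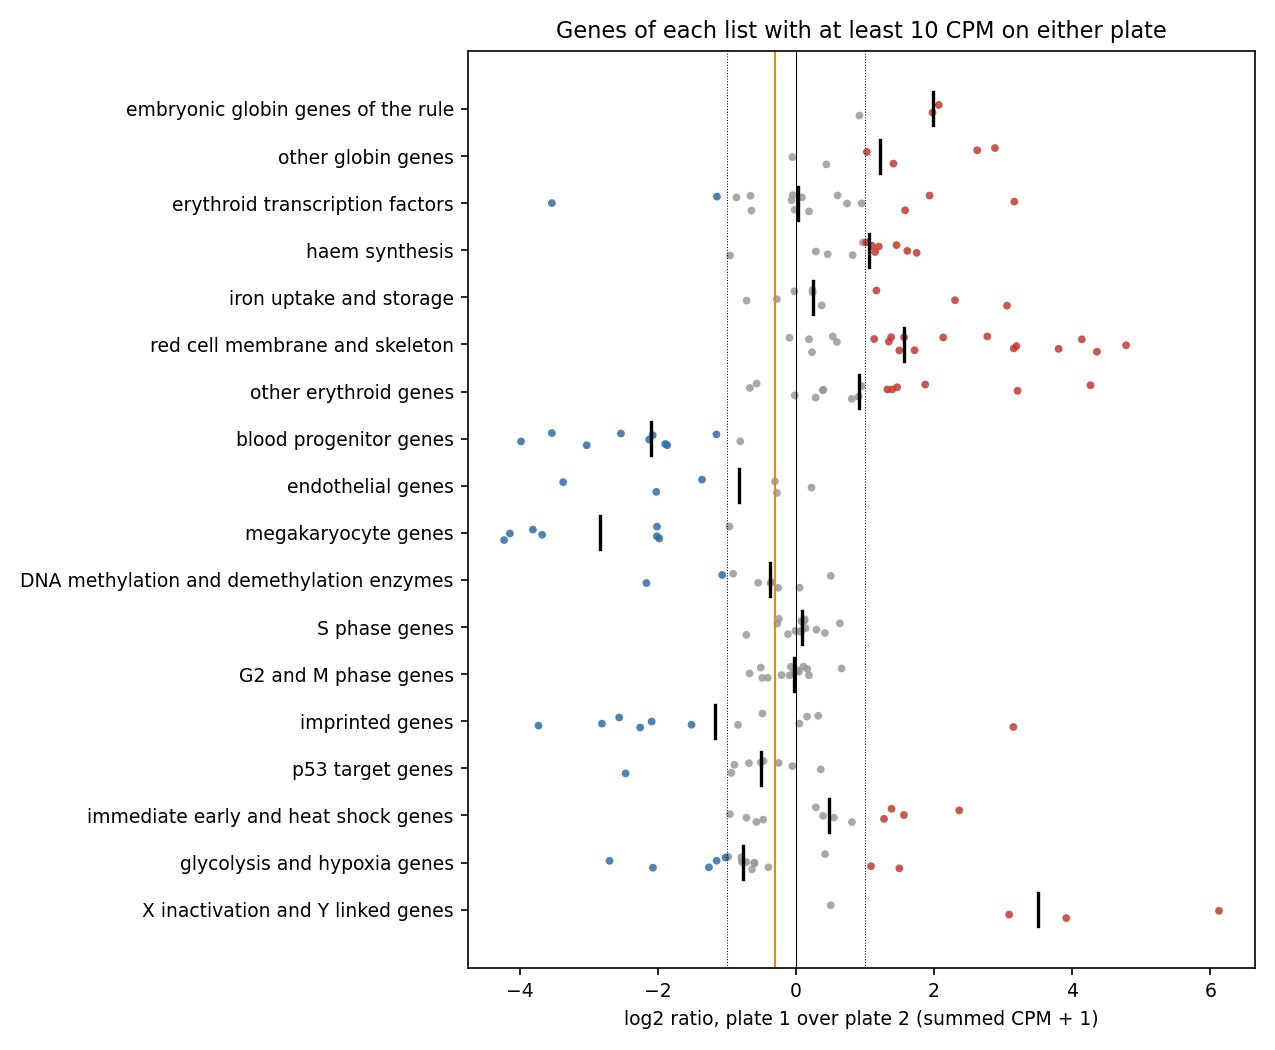
Log2 ratio of plate 1 over plate 2 (summed CPM plus 1) for genes of at least 10 CPM on either plate, with 1 point per gene in each list of at least 3 such genes. Black bars mark the list median, dotted lines 2-fold, the orange line the median over all 8083 genes (-0.31), and the membrane list (median 1.57) and the megakaryocyte list (median -2.84) lie on opposite sides.

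Markers of other cell types were low but not evenly spread. None of 10 myeloid genes and none of 12 germline genes reached 10 CPM on either plate, and 1 of 10 mesenchyme genes did (Ahnak, with a log2 ratio of 1.07, and -0.45 at high load). Of 16 endothelial genes 6 did. Of these 6, 3 were at least 2-fold higher on plate 2 (12.5% of all genes) and 0 on plate 1 (3.07%). At high load 0 were higher on plate 2 (8.52%) and 1 on plate 1 (6.82%). The median was -0.83 over all members and 0.10 at high load. Cdh5 had 0 CPM on plate 1 and 0.431 CPM on plate 2. None of 10 genes of yolk sac endoderm reached 10 CPM, but their summed level ran from 0 through a median of 5.13 to 330 CPM on plate 1 and from 0 through a median of 0 to 34.5 CPM on plate 2. At least 1 read of them was found in 59 of 74 cells on plate 1 and 7 of 80 on plate 2. The 18 wells of plate 1 with enough reads but little globin held these genes at a median of 49909 CPM. Their part in the other plate 1 values was not tested.

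Listed genes of cell division differed by less than 2-fold. Of 15 S phase genes and 15 genes of G2 and M phase, 0 were 2-fold higher on either plate, with medians of 0.09 and -0.02. Glycolysis genes were mixed: of 17, 2 were higher on plate 1 (3.07% of all genes) and 5 on plate 2 (12.5%). Those of plate 1 were Slc2a1, the glucose transporter of red cells (1.50), and the hexokinase gene Hk1 (1.09). Without globin in the library size, 3 were higher on plate 2. Slc2a3, another glucose transporter, had 49.5 and 211 CPM (-2.07), and the phosphofructokinase gene Pfkp 12.2 and 84.7 CPM (-2.70). Of 12 immediate early and heat shock genes, 4 were higher on plate 1 (3.07% of all genes) and 0 on plate 2 (12.5%). Without the 2 cells that stood apart, 1 was higher on plate 2. Hspa1a had 123 and 23.03 CPM (2.37), while all 14 listed genes summed to 7107 CPM on plate 1 and 7468 CPM on plate 2. Of 9 targets of p53 with at least 10 CPM, 0 were 2-fold higher on plate 1 and 1 on plate 2, near the 3.07% and 12.5% of all genes (Eda2r, with a log2 ratio of -2.46, and 0.29 at high load). Immediate early and heat shock genes can respond to handling of the cells, and their part in the other differences was not tested.

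Enzymes of DNA methylation were measured because the injected cells lacked the TET enzymes, which oxidise 5-methylcytosine. Of 9 genes measured, 0 were at least 2-fold higher on plate 1 and 2 on plate 2, which is not far from the 3.07% and 12.5% of all genes. Tet1 had 2.63 CPM on plate 1 and 15.3 CPM on plate 2 (log2 ratio -2.16), Tet2 14.5 and 31.5 CPM (-1.07, or -0.86 without globin in the library size), and Tet3 27.96 and 36.4 CPM (-0.37). In cells of at least 100000 globin CPM the ratios were 0.25, -0.98 and 0.04. Reads on the Tet genes were found on both plates. Which part of each gene the knockout removed was not read from these counts, so the levels assign no genotype. Dnmt1, the maintenance methyltransferase, and Uhrf1, its cofactor, had ratios of -0.26 and 0.05.

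Imprinted genes, which are read from the copy of 1 parent and depend on DNA methylation, differed in both directions. Of 12 measured, 1 was at least 2-fold higher on plate 1 and 6 on plate 2, against 3.07% and 12.5% of all genes, with a median of -1.17 against -0.31. H19, a maternally expressed RNA, ran from 0 through a median of 158 to 818 CPM on plate 1 and from 0 through a median of 2.79 to 162 CPM on plate 2 (171 and 18.4 CPM summed, log2 ratio 3.15, and 2.70 at high load). Impact had 28.9 and 175 CPM (-2.56), Slc38a4 14.8 and 110 CPM (-2.81), and Snrpn 64.8 and 187 CPM (-1.51), all paternally expressed. Mest, with 0.492 and 18.8 CPM (-3.73, or -2.37 without the plate 2 cell that stood apart), had a highest single-cell value of 1274 CPM on plate 2 against a median of 0. Rhox5, an X-linked homeobox gene of placenta, likewise rested on 5 of 80 cells on plate 2 (41.5 CPM, against 0.369 CPM on plate 1). It and Apoe, at 9.86 and 53.3 CPM (-2.32, and -0.15 at high load, or 0.35 there without the plate 2 cell that stood apart), were the 2 of 12 extraembryonic genes to reach 10 CPM.

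Genes of the sex chromosomes divided the plates as well. Xist, the RNA that coats the inactive X, had 169 CPM on plate 1 and 1.44 CPM on plate 2, and 33 of 74 and 4 of 80 cells had at least 10 CPM. A read of Ddx3y, Eif2s3y, Kdm5d or Uty, genes of the Y chromosome, was found in 49 cells on plate 1 and 22 on plate 2. All 4 have X-linked relatives, and without Uty, left out after its values were seen, these were 48 and 4 cells. On plate 1, 0 of 74 cells had neither (exact 95% interval 0 to 4.86%). On plate 2, 56 of 80 had neither, which is 70% (58.7% to 79.7%), or 73 without Uty. On E7.5 lane plate 1, 0 of 53 cells had neither. Plate 1 thus held cells with Xist, cells with Y-linked reads and 8 with both, while most plate 2 cells showed no read of either kind at this depth.

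Processed pseudogenes of ribosomal and other abundant genes formed a further set. Rps3a3 ran from 310 through a median of 827 to 2208 CPM on plate 2 and from 0 through a median of 4.64 to 606 CPM on plate 1 (931 and 9.44 CPM summed, log2 ratio -6.48). The plate 1 cell that stood apart held 382 of the 767 plate 1 reads of Rps3a3, and without it the plate 1 level was 4.78 CPM and the ratio -7.33. Since that cell was picked as the highest in Rps3a3, leaving it out could only enlarge this ratio. The parent gene Rps3a1 had 1076 CPM on plate 2 and 2180 CPM on plate 1, so that parent and pseudogene together had 2007 and 2189 CPM. The parent gene Rps13 had 995 CPM on plate 2 and 936 CPM on plate 1. Together with Rps13-ps1 it had 1186 and 938 CPM, so this pair came less close. Rps13-ps1, Gm11942, BC002163 and Gm8210 had ratios of -5.69, -5.37, -4.53 and -4.48, and Gm8960 one of 3.56. Reads of these genes can be split between near-identical copies, and the counting of reads with several matches was not stated, so their levels are uncertain.

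Some of these genes are also given for the other E8.5 plates, which hold mostly other cells, over all wells of at least 100000 reads. Rps3a3 had 7.80, 905, 8.75, 736, 3.82, 999, 8.81 and 919 CPM on E8.5 plates 1 to 8 in order. Xist had 149, 1.24, 194, 0, 67.3, 7.55, 129 and 0 CPM, and Ddx3y 25.6, 3.71, 33.3, 3.56, 35.9, 1.54, 28.5 and 2.31 CPM. In each of these 3 genes the values of plates 2, 4, 6 and 8 did not overlap those of plates 1, 3, 5 and 7. Dppa4 had 0.428, 74.2, 1.09, 68.96, 0, 70.2, 1.31 and 18.4 CPM. Fgf3 had 316, 25.9, 63.8 and 36.9 CPM on plates 2, 4, 6 and 8 and between 0.276 and 17.8 CPM on plates 1, 3, 5 and 7, so it did not overlap either, and plate 2 was well above the rest. Other genes did overlap, among them Fgf10 and H19. H19 had 283, 17.7, 432, 386, 40.4, 110, 175 and 148 CPM on E8.5 plates 1 to 8 in order. Rps3a3, Xist, Dppa4 and Fgf3 were named for their ratios between plates 1 and 2, and Ddx3y came from a list. The share of all genes that divided the plates without overlap was not counted, so how common such a division is remains unknown here. The labels give no sort gate or genotype for any of these plates, and none was assigned from these values.

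**Figure D5:**
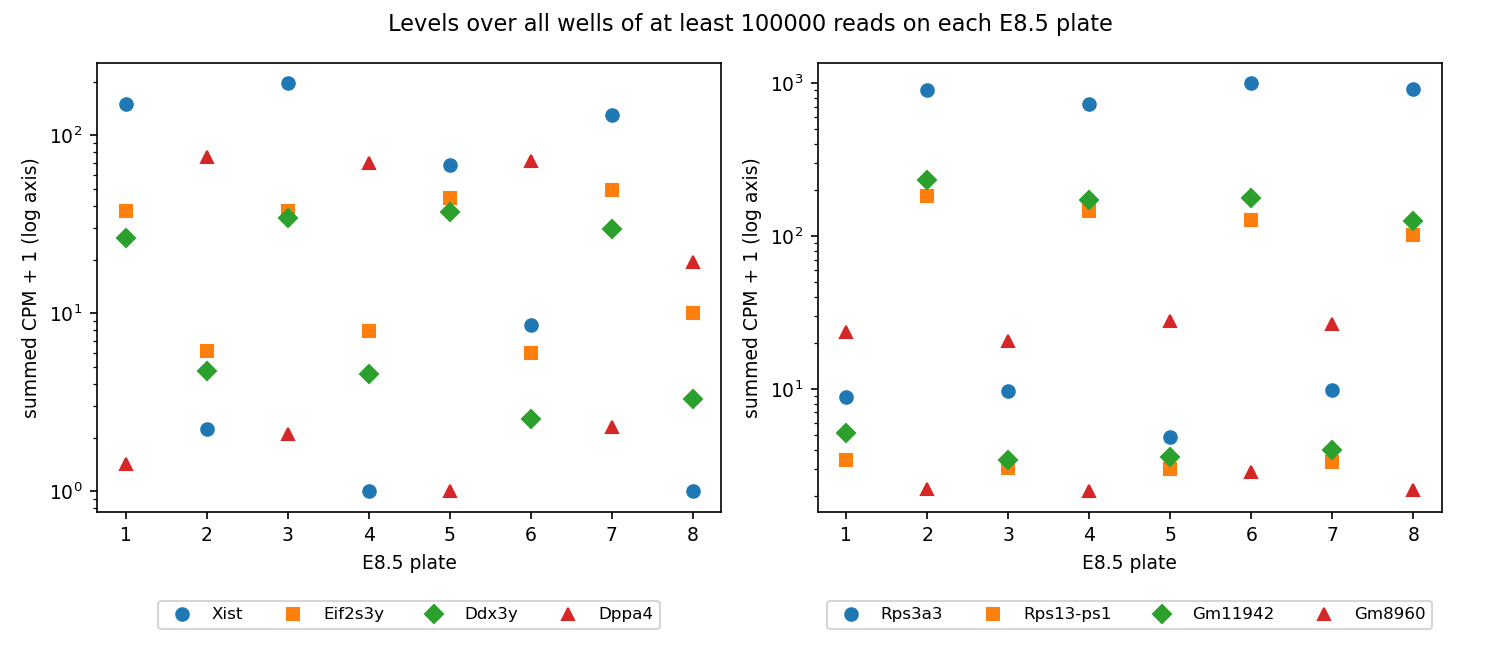
Summed CPM plus 1 (log axis) of 8 genes over all wells of at least 100000 reads on each of the 8 E8.5 plates, with 1 point per gene and plate. Xist, Eif2s3y, Ddx3y and Gm8960 are higher on plates 1, 3, 5 and 7, and Dppa4, Rps3a3, Rps13-ps1 and Gm11942 on plates 2, 4, 6 and 8. The genes were picked as examples, and the share of all genes that divide the plates this way was not counted.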

How the data were processed

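RNA was measured by Smart-seq2 in single sorted cells, and the authors deposited 1 table of raw read counts for 55487 genes in 1824 cells, aligned to GRCm38 with HISAT2 2.1.0 and counted with featureCounts per the submitters' processing notes. Strand and multi-mapping settings are not given in the sources used here. Each column matched the title of 1 cell, and 0 columns were left without a sample. Symbols were matched for 55141 identifiers, and positions came from GENCODE M21 on the same build.

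The members, gene lists and limits were chosen with earlier results of these data known. Reads of the members were summed by plate, divided by all reads of those cells and scaled to CPM, and log2 ratios were taken after adding 1 CPM. Genes with at least 10 CPM on either plate were counted, and 2-fold was the limit for a difference. Named genes were the 15 largest and 15 smallest ratios among genes with at least 20 CPM and a read in at least 50% of cells on the higher plate, of 1 sign in wells of columns 1 to 6 and 7 to 12, globin genes left out, plus all members of 25 gene lists. Some members of these lists are counted but not reported here by name. Genes used only as parents of a pseudogene were chosen after their values were seen. No test across plates was made, since each is 1 sample. The calculation was tested on simulated data. The methods of the study describe collecting singlets, and no doublet caller was run. Alternatives changed the library size (also by TMM from edgeR 4.0.16 and by the size factors of DESeq2 1.42.0, both on the summed counts), pseudocount, filters, depth, globin limits and wells. Python used pandas and numpy, with promoter windows from RefSeq (GRCm38.p6).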

Additional observations from a re-analysis of the deposited data

Results flagged for a closer look

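Globin-rich cells were also found on a plate outside the comparison. On E8.5 plate 5, 9 of 77 wells with at least 100000 reads passed the same globin limit, which is 11.7% (exact 95% interval 5.49% to 21%), with a median of 29581 CPM and a highest value of 88343 CPM over Hba-x, Hbb-bh1 and Hbb-y. They were singled out because 9 cells lie above the 3 that a count of 0 allows. E8.5 plates 6 and 7 and E7.5 lane plate 4 held 3, 1 and 2 such cells.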

How the results depend on the processing

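Of 23 alternatives, 18 were listed with the design and 5 were chosen after seeing the data: cells of 50000 to 150000 globin CPM, and leaving out the cell that stood apart on plate 1, that on plate 2, both, and that of plate 2 from 100000 CPM. Genes at least 2-fold higher on plate 1 and on plate 2 numbered 248 and 1008 in the report. They numbered 384 and 739 without globin in the library size, 387 and 598 with TMM factors, 386 and 600 with DESeq2 size factors, 157 and 490 with 10 CPM added, 626 and 2047 with no minimum, and 114 and 328 at 50 CPM or more. Limits on load gave 254 and 644 from 50000 CPM, 531 and 664 from 100000 (555 and 662 without the plate 2 cell), 643 and 714 from 100000 to 250000, and 449 and 762 from 50000 to 150000. Plate 2 kept the larger count in each. TMM and size factors brought the plate 1 share of calls to 39.3% and 39.1%, and loads of 100000 to 250000 to 47.4%, from 19.7%. The remaining alternatives moved either count by under 1.5 times.

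The 30 named genes kept their direction under all 23 alternatives. Rab37 alone came under 2-fold, at -0.35 to -0.38 under the 3 limits from 100000 CPM. Much of the kept direction was fixed in advance. These genes were picked for the largest ratios and for the same sign in both sets of well columns, which are also among the alternatives. Changing the minimum level leaves a ratio as it is, and a pseudocount added on both plates cannot turn its sign. Of the other genes recomputed that were at least 2-fold apart, 35 came under 2-fold with the same sign in at least 1 alternative. A gene can be counted in both ways, and 14 changed sign. From 100000 CPM these were Hbb-bs (-0.30), Tet1 (0.25), Pecam1 (0.0004), Esam (0.0206), Ahnak (-0.45), Eda2r (0.29) and Kit (3.67). Without the plate 2 cell they were Hbb-bs (-0.29), Apoe (0.35), Mest (0.44), Tet1 (0.34), Esam (0.0206), Ahnak (-0.28), Eda2r (0.28) and Kit (3.67). From 100000 to 250000 CPM they were Hbb-y (-0.25), Hbb-bs (-1.09), Mgst3 (-0.0939), Kit (4.17), Tet1 (0.41), Ahnak (-0.29) and Pecam1 (0.20). From 50000 to 150000 CPM they were Hba-a1 (-0.18), Hbb-bs (-0.54), Kit (2.30), Rhox5 (0.69), Tet2 (0.23), Eda2r (1.21) and Pecam1 (0.87). From 50000 CPM they were Kit (1.32) and Eda2r (0.48), and Kit also turned in columns 7 to 12 (0.20). These alternatives hold fewer cells, and the cause was not tested. With 17 plate 2 cells from 100000 CPM, values of genes seen in few cells are imprecise.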
